A study of Homo sapiens with 3 samples.

Results

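The comparison described here is between cells with a high and cells with a low level of the surface protein CD105, which are 2 of the 3 sorted populations of the study. Both were derived from the established human embryonic stem cell line H1 and gated as CD31+CD34+, so the step lies within cells that carry CD105. The populations, called HEPs in the labels, are given as day 4 of blood differentiation; per the labels' protocols the culture ran for 2 days with activin A (40 ng/ml) plus BMP4 (50 ng/ml), and for another 3 days with VEGF (40 ng/ml) plus bFGF (50 ng/ml). The groups are named CD105high, CD105low and, for the remaining population that lacks surface CD105, CD105neg. Each group had 1 RNA-seq library from 1 cell line, so no difference below has a replicate check, no p-value can be given, and every comparison is one of libraries.

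Genes were taken into the comparison when they stood at or above 10 in the CD105high or the CD105low table, which held for 5702 of the 18345 genes listed. The deposited values were treated as FPKM, a level scaled by transcript length and library size; neither the labels nor the headers name the unit. Fold changes are log2 differences of value plus 1, CD105high minus CD105low, centred on the median gene, which before centring stood at -0.10. A gene was counted as higher or lower when it was at least 1.5-fold from the median gene, a log2 distance of 0.58. The gene just inside the entry level was APBA3, at 10.0007 FPKM in CD105low and 9.71 FPKM in CD105high, and the gene just outside it was COL27A1, at 9.9989 and 8.49 FPKM. The deposited values summed to 284824 in CD105low, 265618 in CD105high and 289229 in CD105neg. No read totals are at hand, so depth is unknown and no counting interval is given. The value column of the CD105neg table is headed CD31+CD105+, which goes against that sample's title; the title was followed, and no fold change below uses that library.

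CD105 is the product of ENG. Endoglin helps receptors of endothelial cells, ALK1 above all, to bind BMP9, BMP10 and related ligands, and it is more abundant on endothelium that is growing. CD31 and CD34 are surface proteins shared by endothelium and early blood progenitors. In the embryo blood stem and progenitor cells arise from a specialised endothelium in which vessel genes and blood genes are for a time expressed together. At the front of a growing vessel, tip cells respond to VEGF, while Notch signalling from the ligand DLL4 holds their neighbours back.

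The genes taken as markers of the CD105high cells were ENG (ENSG00000106991.13), ESM1 (ENSG00000164283.12), EDN1 (ENSG00000078401.6) and DLL4 (ENSG00000128917.6). All 4 were at least 1.5-fold higher in CD105high, which describes the compared libraries and is no independent check of the choice. ENG, ESM1 and EDN1 reached 10 FPKM in CD105high alone. The 250 bases before the RefSeq start sites of these 4 genes are printed 5′ to 3′ on the gene's strand. The build is GRCh38.p14, not that of the submitters' notes. Capitals show matches on either strand. The elements sought were the TATA box TATAAA, the GC box GGGCGG, the AP-1 element TGANTCA, the RBPJ element TGGGAA and the ETS element CCGGAA.
ENG, minus strand, chr9:127854659-127854908: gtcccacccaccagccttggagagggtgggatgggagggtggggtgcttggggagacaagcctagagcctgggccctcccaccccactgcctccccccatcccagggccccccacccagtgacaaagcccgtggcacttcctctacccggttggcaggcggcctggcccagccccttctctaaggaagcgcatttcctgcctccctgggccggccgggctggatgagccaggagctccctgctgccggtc
ESM1, minus strand, chr5:54985594-54985843: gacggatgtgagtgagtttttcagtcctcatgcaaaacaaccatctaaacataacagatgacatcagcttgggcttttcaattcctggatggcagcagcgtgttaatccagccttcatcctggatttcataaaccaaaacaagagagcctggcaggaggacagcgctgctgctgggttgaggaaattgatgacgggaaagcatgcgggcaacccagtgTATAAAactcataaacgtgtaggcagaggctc
EDN1, plus strand, chr6:12287769-12288018: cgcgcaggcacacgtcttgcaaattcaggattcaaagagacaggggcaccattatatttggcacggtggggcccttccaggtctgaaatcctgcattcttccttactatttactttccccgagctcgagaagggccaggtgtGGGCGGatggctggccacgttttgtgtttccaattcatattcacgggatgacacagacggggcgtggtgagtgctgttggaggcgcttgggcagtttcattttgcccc
DLL4, plus strand, chr15:40929090-40929339: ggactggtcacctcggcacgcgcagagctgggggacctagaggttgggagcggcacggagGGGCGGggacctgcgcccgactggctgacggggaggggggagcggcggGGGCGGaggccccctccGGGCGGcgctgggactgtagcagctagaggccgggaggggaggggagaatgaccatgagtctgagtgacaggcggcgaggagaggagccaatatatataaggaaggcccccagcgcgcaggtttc

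ESM1 held 1 match, the TATA box, beginning 32 bases before the start, and ENG held none. EDN1 had 1 GC box and DLL4 had 3. Over the 27305 RefSeq windows of this length, 42.3% held a GC box, 11.1% a TATA box, 6.60% an AP-1 element, 21.1% an RBPJ element and 14.8% an ETS element. Of the 25 genes with the highest fold changes 17 had a window, and GC boxes were in 13 of these 17, against 14 of the 20 windows found for the 25 lowest. Of the other elements, the TATA box was in 2, the ETS element in 3, the RBPJ element in 1 and the AP-1 element in 0 of the 17 windows. A match is a run of letters and shows no binding.

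Most genes were less than 1.5-fold apart between CD105high and CD105low; ESM1, EDN1, COL15A1, LPL and FCN3 were among the 25 with the highest fold changes, as were YPEL2, RGCC, PHLDA1 and DSTN. With genes of 10 FPKM or more, 109 were at least 1.5-fold higher (1.91% of those counted) and 78 were at least 1.5-fold lower (1.37%), which makes 187 in either direction (3.28%). At 2-fold the numbers were 21 higher (0.368%) and 16 lower (0.281%), together 37 (0.649%). The split depended on the centring: 58.3% of the 1.5-fold calls were higher with it and 37.5% without it, with 72 higher and 120 lower on the deposited scale. The middle 95% of all counted genes lay between -0.44 and 0.53. Of the 109 higher genes 35 reached 10 FPKM in CD105high alone, and of the 78 lower genes 26 reached it in CD105low alone. These entered through the library in which they were high. This held for ESM1, EDN1, COL15A1, YPEL2, RGCC, MDFIC, ORMDL3, OIT3, SH3GLB1, RHOQ, A1BG, PLEKHA1 and MYO1E, all among the 25 highest fold changes. By mean level the share of calls had no steady trend: it was 3.37% under 20 FPKM, 3.18% from 20 to 50 FPKM, 2.66% from 50 to 100 FPKM, 4.65% from 100 to 300 FPKM and 1.83% for the 109 genes at or above 300 FPKM.

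**Figure D1:**
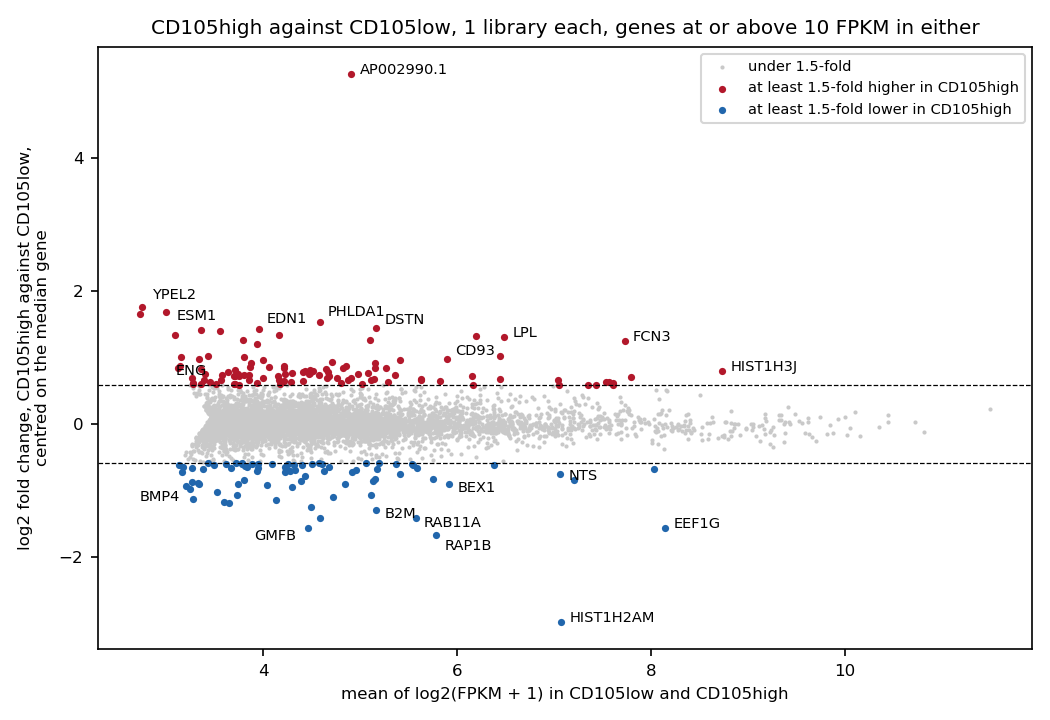
Log2 fold change of CD105high against CD105low, centred on the median gene (vertical axis), by the mean log2(FPKM + 1) of both libraries (horizontal axis), for the 5702 genes at or above 10 FPKM in either; each point is a gene, and dashed lines mark 1.5-fold. Of the 109 higher genes (red) AP002990.1 lies farthest from the rest, and of the 78 lower genes (blue) HIST1H2AM does.

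The gate genes were read first. ENG was at 8.56 FPKM in CD105low, 13.8 FPKM in CD105high and 2.12 FPKM in CD105neg, a centred log2 fold change of 0.73 between the first pair. That is the direction of the sort, which makes it a check of the labels and not a result. ENG reached 10 FPKM in CD105high alone, and its fold change was 0.56, under the 1.5-fold line, with a pseudocount of 5. PECAM1, which encodes the adhesion protein CD31, was at 41.9, 50.1 and 29.9 FPKM in CD105low, CD105high and CD105neg, and CD34, a sialomucin, at 39.2, 43.2 and 21.0 FPKM in that order. Neither reached 1.5-fold between CD105high and CD105low (0.36 and 0.24). In the values that follow, libraries are given in the same order, CD105low, CD105high and CD105neg. List counts are read against the 1.91% of all counted genes that were higher and the 1.37% that were lower. Members and lists were chosen with earlier results of these data known, so every list count describes these libraries and is no independent support. Some genes are members of several lists, so the counts are not separate from each other. A single call in a list is too few to set apart from that share. The CD105neg value is printed for scale only: the comparison of CD105low with CD105neg shares the CD105low library with the present one. For genes called or ranked by fold change, the order of CD105high and CD105low is fixed by that choice.

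Genes known from sprouting tip cells were led by ESM1. ESM1, a proteoglycan secreted by tip cells, stood at 3.60, 12.8 and 0.10 FPKM, so it was near nothing in CD105neg and highest in CD105high (1.69). Of 30 genes in the sprouting list 19 reached 10 FPKM. Of these, 4 were higher (1.91% of all counted genes were) and none was lower. The higher members were ESM1, which reached 10 FPKM in CD105high alone, COL4A1, COL4A2 and DLL4. ESM1 and DLL4 are also chosen markers, and the list was chosen with earlier results of these data known. The median of the 19 was 0.30, where the median of all counted genes is 0 by centring. COL4A1, a chain of the collagen of basement membranes, was at 179, 273 and 118 FPKM (0.71). COL4A2, its partner chain, was at 162, 231 and 111 FPKM (0.61), which fell to 0.51 without centring and to just under the line with a pseudocount of 5 (0.5843). Both chains were thus highest in CD105high. The other counted members did not reach 1.5-fold. The protease gene MMP14 was at 139, 158 and 89.0 FPKM and APLN, the ligand apelin, at 33.6, 30.6 and 21.4 FPKM. PGF, a VEGF family ligand, was at 10.8, 8.31 and 13.7 FPKM, the lowest value being that of CD105high. ANGPT2, the ligand that opposes TIE2 signalling, was under 10 FPKM at 2.48, 4.01 and 2.67. It was past 1.5-fold without being counted (0.63), and so was the ligand gene PDGFB (1.10).

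Among vasoactive peptide genes the difference lay in a ligand and a receptor partner. EDN1, which encodes the constrictor peptide endothelin-1, stood at 8.77, 23.5 and 1.69 FPKM, a centred log2 fold change of 1.43, or 2.69-fold. The CD105high value was the highest of the 3 libraries and the CD105neg value the lowest. RAMP2, which with CALCRL forms the receptor for adrenomedullin, was at 17.0, 28.0 and 6.08 FPKM (0.79). Of its sampled sequence 15.2% is shared with other genes. CALCRL itself was at 68.1, 61.8 and 52.99 FPKM (-0.03), its highest value being that of CD105low. Of the 28 genes in the list 9 were counted, 2 were higher, against 1.91% of all counted genes, and none was lower. EDN1 entered through CD105high alone and is also a chosen marker. The list was chosen with earlier results of these data known. The median was 0.02, or -0.09 without centring. The other counted members were ECE1, the protease that matures endothelin (-0.09), NOS3, the endothelial nitric oxide synthase (0.02), APLN (-0.03), the apelin receptor gene APLNR (0.08), DDAH2 (-0.20) and NPR1, a natriuretic peptide receptor (0.27). The endothelin receptor genes EDNRA and EDNRB were under 1 FPKM in every library, as was RAMP3.

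In the arterial and Notch list a Notch ligand, a connexin and a semaphorin stood apart. DLL4, the endothelial Notch ligand, was at 11.98, 18.5 and 4.18 FPKM (0.69). GJA4, the gap junction protein connexin 37 of arteries, was at 10.7, 17.0 and 6.09 FPKM (0.73). SEMA3G, a semaphorin of arterial endothelium, was at 25.7, 46.1 and 8.35 FPKM (0.92). All 3 were highest in CD105high and lowest in CD105neg, although DLL4 (0.56) and GJA4 (0.578) fell under the line with a pseudocount of 5. Of 34 listed genes 14 were counted, 3 were higher, against 1.91% of all counted genes, none was lower and the median was 0.23. DLL4 is also a chosen marker, and the list was chosen with earlier results of these data known. The glycosyltransferases that modify Notch gave 0.50 for LFNG, at 25.5, 33.8 and 15.98 FPKM, and 0.35 for MFNG, at 19.2, 23.0 and 11.1 FPKM, neither of them 1.5-fold. The receptors gave -0.10 for NOTCH1, at 38.6, 33.4 and 32.2 FPKM, and 0.05 for NOTCH3, and the ligand JAG1 gave 0.01. NOTCH4, a receptor of endothelium, was under 10 FPKM, at 1.72, 3.48 and 0.82, and was past 1.5-fold without being counted. GJA5, the arterial connexin 40, was at 11.2, 9.77 and 17.3 FPKM (-0.08), an order unlike that of GJA4. The ephrin gene EFNB2, an arterial marker, was at 11.7, 14.3 and 7.36 FPKM (0.37), with 24.2% of its sampled sequence also in other genes. NRP1 (0.46), ADAM17 (0.05) and ADAM10 (-0.17) were counted too, and none of them reached 1.5-fold. In the venous and lymphatic list none of 5 counted members, FLT4 (0.30), EPHB4 and NRP2 (both 0.14), APLNR and TSPAN12, reached 1.5-fold. Below the entry level its members NT5E (0.65) and EMCN (0.61), a sialomucin at 5.66, 8.44 and 2.66 FPKM, were past that fold.

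No counted member of the VEGF and angiopoietin system reached 1.5-fold, although 8 of the 9 counted were above the median gene. KDR, the main VEGF receptor, was already at 644 FPKM in CD105low and at 713 FPKM in CD105high, with 430 FPKM in CD105neg (0.25). FLT1, a VEGF receptor that binds the ligand without strong signalling, was at 198, 211 and 142 FPKM (0.20). TEK, the angiopoietin receptor TIE2, gave 0.25, its relative TIE1 gave 0.35, and PTPRB, the phosphatase that restrains TIE2, gave 0.55 at 12.7, 17.8 and 10.8 FPKM. PTPRB just passed the line with a pseudocount of 0.1 (0.5855). PGF was the counted member below the median gene (-0.24). The ligands VEGFA and VEGFB were under 10 FPKM in both libraries, at 6.998 and 4.93 FPKM and at 7.84 and 4.61 FPKM in CD105low and CD105high.

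**Figure D2:**
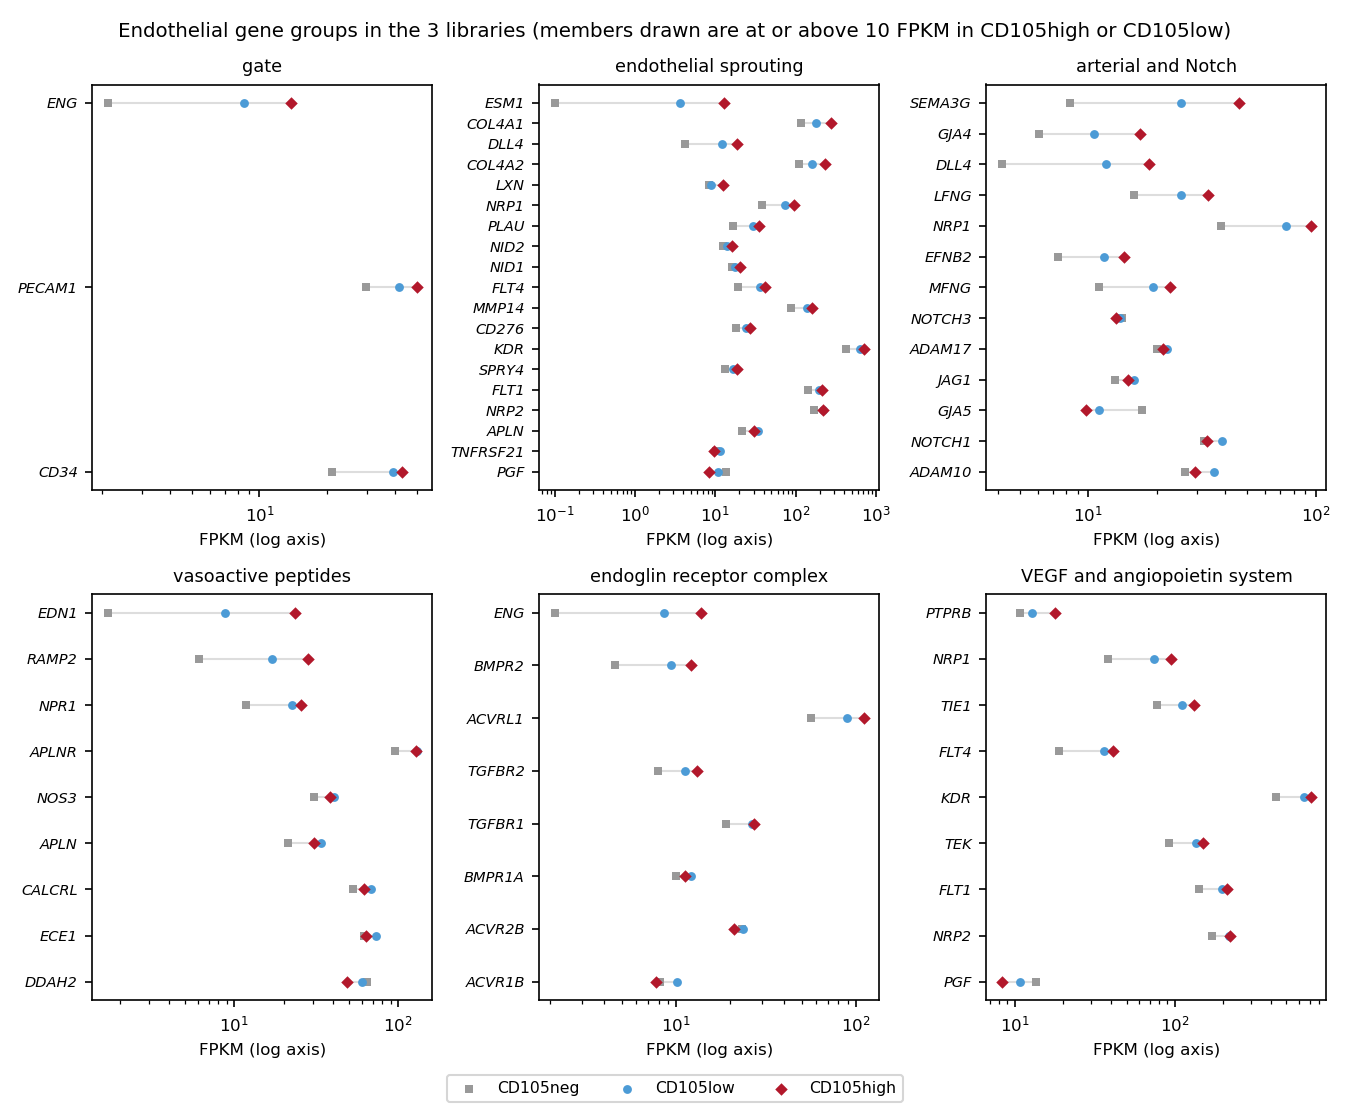
Values in the CD105neg (grey squares), CD105low (blue circles) and CD105high (red diamonds) libraries on a log FPKM axis, 1 point per library, for the counted members of 6 gene groups (1 arterial and Notch member is not drawn), ordered by the fold change of CD105high against CD105low. ESM1, EDN1, DLL4, SEMA3G and RAMP2 show wide steps with CD105high rightmost, while NOTCH1, NOS3 and CALCRL show CD105low at or beyond CD105high.

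In the list of endoglin and its receptor partners ENG alone was at least 1.5-fold higher, among 8 counted of 16. ENG encodes the sorted protein and reached 10 FPKM in CD105high alone. ACVRL1, which encodes ALK1, was at 88.9, 111 and 56.4 FPKM (0.42). BMPR2, the type II receptor of the same complex, was at 9.34, 12.1 and 4.60 FPKM (0.45). TGFBR2 was at 11.2, 13.1 and 7.89 FPKM (0.31). These 3 values lay above the median gene without reaching the line. TGFBR1 (0.14), BMPR1A (0.02), ACVR2B (-0.06) and ACVR1B (-0.25) did not reach it either. BMP6, a BMP made by endothelial cells, was at 14.6, 23.7 and 5.196 FPKM, highest in CD105high (0.77). BMP4, which was also supplied in the first culture stage, was at 12.7, 5.49 and 8.602 FPKM, highest in CD105low (-0.98). The BMP modulator gene BMPER was at 52.7, 40.2 and 54.3 FPKM (-0.28), and TGFB1 gave 0.10. The list of ligands and inhibitors had 9 counted of 34, 1 higher, 1 lower and a median of -0.07. GDF2, which encodes BMP9, was listed at 0 in all 3 libraries, and BMP10 stood at 5.22, 3.79 and 8.41 FPKM. Among 13 counted TGF-beta targets none was higher and 1 was lower, the fibrillar collagen gene COL1A1. It was at 14.6, 8.57 and 21.4 FPKM (-0.60, or -0.44 with a pseudocount of 5). This single call is too few to set apart from the 1.37% of all counted genes that were lower. The corepressor gene SKIL gave 0.47, and the smooth muscle gene TAGLN (-0.54) and COL3A1 (-0.52) passed the line only on the deposited scale (-0.64 and -0.63).

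The broad endothelial list held the most genes that were higher. Its members were chosen with earlier results of these data known, so the count describes these libraries and is no independent support. Of 45 members 34 were counted, 10 were at least 1.5-fold higher (1.91% of all counted genes were), none was lower, and the median was 0.37. Of these 10, COL15A1, CLEC14A, GIMAP4 and THBD reached 10 FPKM in CD105high alone and so entered through the library in which they were high; the other 6 reached it in both. With the alternatives that kept the entry level the number of higher members ranged from 7 to 11, and with an entry level of 30 FPKM it was 3. CD93, a lectin-like receptor of endothelium, was at 42.9, 79.6 and 11.4 FPKM (0.98). CLEC14A, its relative, was at 9.85, 15.7 and 3.39 FPKM (0.72). COL15A1, a basement membrane collagen, was at 4.56, 12.05 and 0.52 FPKM (1.34). Each of these was highest in CD105high and lowest in CD105neg. The adhesion receptor genes ADGRF5 (0.81) and ADGRL4 (0.68), the thrombin receptor partner THBD (0.79), RAMP2, the GTPase gene GIMAP4 (0.72), FAM124B (0.66) and the clotting factor gene VWF (0.66) were the remaining higher members. VWF fell to 0.52 with a pseudocount of 5 and to 0.55 without centring. The core junction gene CDH5, VE-cadherin, was at 79.6, 94.1 and 48.01 FPKM (0.34), short of the line. PLVAP, the diaphragm protein of endothelial pores, was at 246, 296 and 118 FPKM (0.37), and E-selectin, SELE, at 76.5, 93.1 and 30.1 FPKM (0.38). ICAM2, a ligand for leukocyte integrins, went the other way at 26.8, 17.2 and 50.9 FPKM (-0.51), with 35.7% of its sampled sequence shared, and passed the line only on the deposited scale (-0.61). EGFL7 gave -0.15, STAB1 -0.09, MCAM -0.04 and CALCRL -0.03.

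In related groups of vessel genes fewer members were past the line, where 1.91% of all counted genes were higher and 1.37% lower. All 13 counted clotting and fibrinolysis genes lay above the median gene, 3 of them at least 1.5-fold: THBD, at 8.79, 14.7 and 3.33 FPKM, VWF, at 10.9, 16.5 and 4.89 FPKM, and the junction molecule gene F11R. On the deposited scale 9 of the 13 lay above 0. The protease inhibitor gene TFPI was at 264, 273 and 184 FPKM (0.15). In the matrix list 3 of 24 counted genes were higher, COL15A1, COL4A1 and COL4A2, and none was lower. COL15A1 and, among the clotting genes, THBD reached 10 FPKM in CD105high alone, and so entered through the library in which they were high. The laminin chains LAMB1 (0.03) and LAMC1 (0.06) did not reach 1.5-fold. The junction list had 2 of 19 higher, F11R and GJA4, and the guidance list 1 of 15, SEMA3G. These lists overlap with others. COL4A1 and COL4A2 are in the sprouting list, and COL15A1, THBD and VWF in the broad endothelial list. GJA4 and SEMA3G are in the arterial and Notch list. F11R is in the clotting list too, was lowest in CD105low and has 47.6% of its sampled sequence in other genes. No integrin chain of the 7 counted reached 1.5-fold, ITGA9 being the highest (0.36) and ITGB1 the lowest (-0.21).

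Surface genes used to sort haemogenic endothelium had 2 higher members among 13 counted of 25, DLL4 and F11R, and none lower. Both are counted in other lists too. DLL4 is a chosen marker and fell to 0.56, under the line, with a pseudocount of 5. F11R was lowest in CD105low, at 62.2, 119 and 98.9 FPKM, and has 47.6% of its sampled sequence in other genes. Its sum with AL591806.3 gave 1.01. Of all counted genes 1.91% were higher. KIT, the stem cell factor receptor, was at 12.2, 15.6 and 6.76 FPKM (0.44). CD9, a tetraspanin, was at 27.7, 35.0 and 15.7 FPKM (0.43), and CD44, the hyaluronan receptor, at 14.2, 14.8 and 16.7 FPKM (0.16). None of these was 1.5-fold apart. NT5E, the ectoenzyme CD73, was under 10 FPKM at 2.42, 3.997 and 0.57. The chemokine receptor gene CXCR4, also under 10 FPKM, was at 6.46, 9.24 and 8.43. Blood genes on this list were low, with ITGA2B, the integrin chain CD41, at 4.87, 2.28 and 7.84 FPKM and SPN, the sialoprotein CD43, at 2.55, 1.19 and 3.42 FPKM. Both were lowest in CD105high. The entry level kept them out of the counts.

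Genes of the red cell and platelet lineages were mostly too low to be counted. Of 40 listed genes 5 reached 10 FPKM, and 1 of them was lower, with a median of 0.01. With an entry level of 1 FPKM 6 were lower, GYPB, GYPE, HBE1, ITGA2B, PF4 and RHAG, and the median was -0.38. RHAG, part of the Rh complex of the red cell membrane, stood at 10.9, 5.71 and 26.3 FPKM (-0.72; -0.48, and so under the line, with a pseudocount of 5). TFRC, the transferrin receptor, was at 10.6, 6.52 and 12.6 FPKM (-0.53; -0.59 with a pseudocount of 0.1 and -0.63 on the deposited scale). The other counted members, BLVRB, GYPC and SLC25A37, lay between 0.01 and 0.19. The summed level of all 40 was 135 FPKM in CD105low, 110 FPKM in CD105high and 194 FPKM in CD105neg. Under 10 FPKM, the glycophorin gene GYPB was at 3.72, 1.38 and 8.92 (-0.88), the embryonic globin gene HBE1 at 2.504, 1.09 and 10.9 (-0.64) with 81.4% of its sampled sequence shared, and the fetal globin gene HBG2 at 1.16, 1.27 and 8.10 (0.17). Of 29 blood surface genes 5 were counted and none was 1.5-fold apart. PTPRC, the leukocyte marker CD45, was listed at 0 in both libraries.

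Among the 25 highest fold changes, FCN3, LPL and C8orf4 stood at high levels. FCN3, ficolin-3, a lectin that starts complement, stood at 142, 314 and 17.7 FPKM (1.25). LPL, lipoprotein lipase, which frees fatty acids from lipoproteins, stood at 57.8, 135 and 5.81 FPKM (1.32). C8orf4 stood at 46.9, 110 and 8.33 FPKM (1.32). All 3 were lowest in CD105neg. That CD105high lay above CD105low is fixed by the ranking. OIT3 was at 8.27, 19.7 and 0.86 FPKM (1.26), BRINP1 at 10.7, 26.5 and 3.06 FPKM (1.34), and the motor protein gene MYO1E at 6.47, 12.7 and 2.65 FPKM (0.98). RGCC, a cell cycle regulator, reached 10.4 FPKM in CD105high from 2.88 FPKM in CD105low (1.65). MDFIC, an inhibitor of myogenic factors, reached 15.2 from 5.52 FPKM (1.41). OIT3, MYO1E, RGCC and MDFIC reached 10 FPKM in CD105high alone. SELENOP, the plasma selenium carrier, was at 30.5, 56.1 and 13.5 FPKM (0.96), and its sum with CCDC152, with which it shares 38.6% of its sampled sequence, gave 0.81. In the lipid list LPL and the lipid droplet gene PLIN3 were the higher members of 9 counted, against 1.91% of all counted genes. PLIN3 was at 18.2, 28.7 and 29.7 FPKM (0.73), lowest in CD105low unlike LPL, with 12.1% of its sampled sequence shared. The fatty acid carrier FABP5 (-0.12) and APOE (0.04) were not apart. Among 8 counted interferon-induced genes IFIT1, at 21.2, 36.7 and 8.57 FPKM (0.87), and ISG15, at 111, 156 and 71.2 FPKM (0.59), were higher. The share over all counted genes was 1.91%, and 6 of these 8 lay below the median gene. ISG15 fell under the line in 4 alternatives, with 0.56 at a pseudocount of 5 and 0.49 on the deposited scale.

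Other genes among the 25 highest had their lowest value in CD105low and not in CD105neg. DSTN, an actin-severing protein, stood at 21.6, 56.1 and 63.4 FPKM (1.44). PHLDA1, an early response gene, stood at 13.6, 38.2 and 42.8 FPKM (1.53), and ORMDL3, a regulator of sphingolipid synthesis, at 6.47, 17.4 and 17.2 FPKM (1.40). In these genes the CD105low library was the one apart. The ranking uses the CD105low value itself, so this is no independent finding. RAB31 (21.9, 50.2 and 39.9 FPKM) and YPEL2 (2.78, 10.9 and 5.58 FPKM) had CD105low as the lowest library too, and so did TACC1 and SH3GLB1. SENP3, a SUMO protease, was at 10.9, 20.5 and 32.8 FPKM (0.96), and its sum with the read-through gene SENP3-EIF4A1 gave 0.30. CDKN1A, the CDK inhibitor p21, was not among the 25 highest. It too was lowest in CD105low, at 45.9, 67.0 and 119 FPKM (0.64, or 0.54 on the deposited scale). F11R was at 62.2, 119 and 98.9 FPKM (1.02), with 47.6% of its sampled sequence in other genes.

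**Figure D3:**
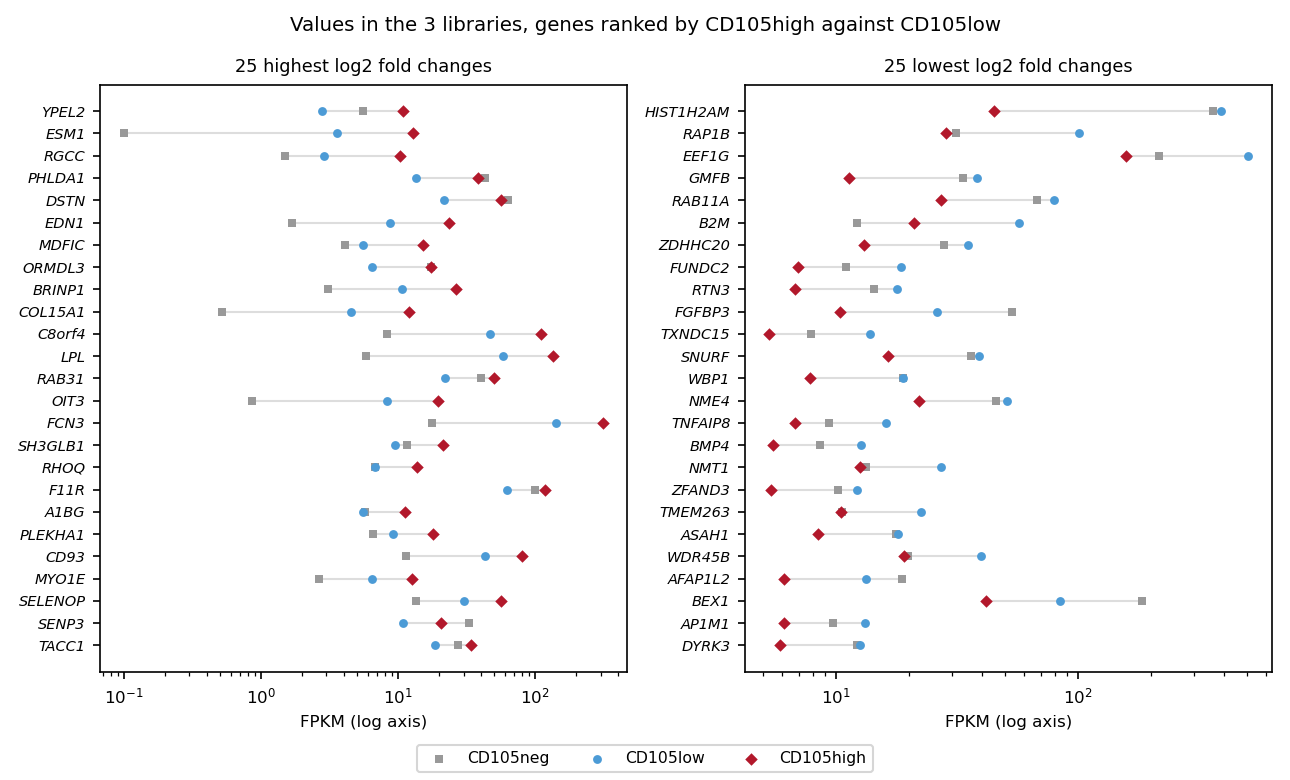
FPKM on a log axis in CD105neg (grey squares), CD105low (blue circles) and CD105high (red diamonds), 1 point per library, for the genes with the 25 highest (left) and 25 lowest (right) fold changes of CD105high against CD105low. In ESM1, EDN1, LPL and FCN3 the values run from CD105neg to CD105high in order, whereas in DSTN and RAP1B the CD105low value lies apart. The order of CD105high and CD105low is fixed by the ranking.

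Among the 25 lowest fold changes were RAP1B, B2M, GMFB and RAB11A. RAP1B, a small GTPase of cell adhesion, stood at 101 FPKM in CD105low, 28.6 FPKM in CD105high and 31.4 FPKM in CD105neg (-1.68), with 18.6% of its sampled sequence shared. B2M, the light chain of MHC class I, stood at 57.0, 21.1 and 12.2 FPKM (-1.29). In both the CD105low library was the highest. Of the MHC class I heavy chain genes, HLA-E, at 62.2, 69.5 and 48.6 FPKM (0.26), HLA-B (0.15) and HLA-C (0.04) were short of the line. RAP1B, NMT1, TMEM263 and WDR45B had values of CD105high and CD105neg close together, with CD105low above both, for example NMT1 at 27.3, 12.6 and 13.3 FPKM. In B2M the CD105high value stood well above that of CD105neg. GMFB, glia maturation factor beta, was instead apart in CD105high, at 38.2, 11.3 and 33.5 FPKM (-1.57), and so was RAB11A, a GTPase of recycling endosomes, at 79.7, 27.03 and 67.9 FPKM (-1.42). The palmitoyl transferase gene ZDHHC20, at 35.1, 13.1 and 27.9 FPKM (-1.25), and NME4, a mitochondrial nucleotide kinase, at 50.7, 22.004 and 45.6 FPKM (-1.06), had the same shape.

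Other lower genes stood highest in CD105neg. FGFBP3, a binder of fibroblast growth factors, stood at 26.0, 10.4 and 53.4 FPKM (-1.15). BEX1 stood at 84.3, 41.5 and 185 FPKM (-0.90), and NTS, the peptide neurotensin, at 179, 98.3 and 314 FPKM (-0.75). The glycolytic enzyme gene ENO2 stood at 39.1, 21.6 and 60.4 FPKM (-0.72). In each of these 4 the CD105neg library was the highest and CD105high the lowest. AFAP1L2, an adaptor of actin filaments, was at 13.3, 6.12 and 18.6 FPKM (-0.91) in the same order.

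Some of the most extreme values belonged to genes that share sequence with a neighbour. No source used here says how reads were divided between such genes. EEF1G, a subunit of translation elongation factor 1, stood at 504, 157 and 215 FPKM, and AP002990.1, a clone-named gene that was named after its values were seen, at 4.02, 179 and 209 FPKM. Their fold changes were -1.57 and 5.27, the latter being the highest of all genes counted. EEF1G shares 96.8% of its sampled sequence with AP002990.1, and the sum of the pair was 508, 336 and 424 FPKM (-0.49). The histone genes HIST1H2AM, at 390, 45.2 and 359 FPKM (-2.98), and HIST1H3J, at 333, 539 and 315 FPKM (0.80), also share sequence. Their sum was 723, 584 and 674 FPKM (-0.20). SNURF was at 39.0, 16.4 and 36.0 FPKM (-1.10), and its sum with SNRPN, which shares its transcripts, was 172, 144 and 175 FPKM (-0.15). In these 3 pairs at least 1 single gene was past the line and the sum was not. By contrast the sum of WBP1 with its read-through gene INO80B-WBP1 stayed lower (-1.06). Over all genes the share with at least 10% shared sequence was 23.2% among the 5702 counted and 23.5% among the 187 past the line.

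**Figure D4:**
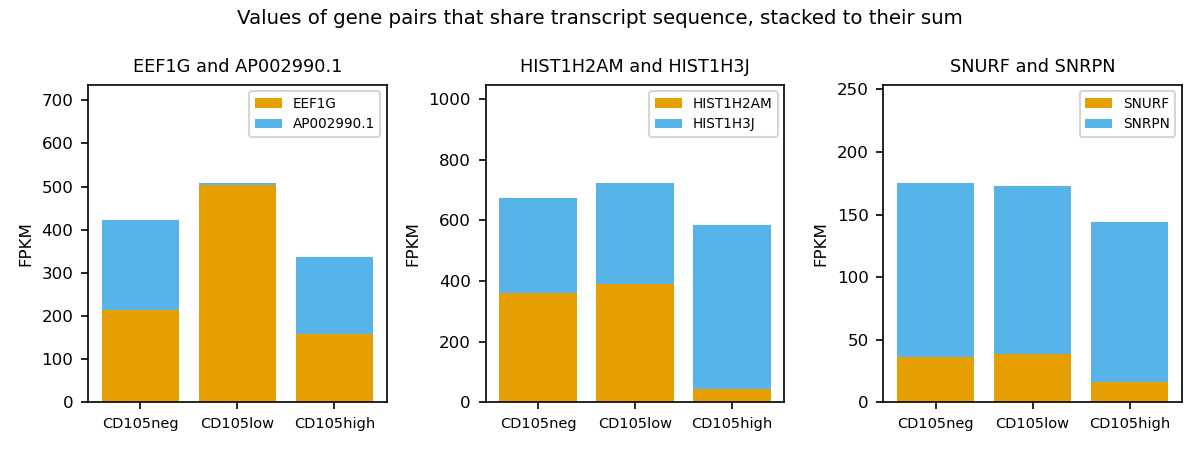
FPKM of 3 gene pairs in the CD105neg, CD105low and CD105high libraries, drawn as stacked bars from 0 so that the bar height is the sum of the pair. AP002990.1 is nearly absent from the CD105low bar (4.02 FPKM) and HIST1H2AM is small in the CD105high bar (45.2 FPKM), while the sums differ less.

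Lists of growth and upkeep genes are read against the 3.28% of all counted genes that were past the line in either direction. Of 83 counted ribosomal protein genes none was 1.5-fold apart, and their fold changes ran from -0.35 in RPS10 to 0.51 in RPS27L with a median of -0.08. None of 72 respiratory chain genes (median -0.07, NDUFS4 and NDUFS8 lowest at -0.46) and none of 47 mitotic genes (median -0.06, CCNB1 lowest at -0.34) reached the line. In the DNA replication list 1 of 40 was lower, RRM2, a subunit of ribonucleotide reductase, at 26.2, 15.4 and 22.8 FPKM (-0.63, or -0.53 with a pseudocount of 5; 40.4% of its sampled sequence is shared, and its sum with AC007240.1 gave -0.36, short of the line), and 31 lay below the median gene (median -0.10). In the glycolysis list ENO2 was the lower member of 24. Neither the 21 sterol synthesis genes, the 15 amino acid stress genes nor the 17 heat-shock and handling genes held a gene past the line. Of 12 growth factor feedback genes PHLDA1 was higher; DUSP1, an early phosphatase, was at 36.0, 48.5 and 32.6 FPKM (0.53). Of 60 counted histone genes 58 were within the line, HIST1H2AM and HIST1H3J being the exceptions. The single calls among replication and glycolysis genes and the pair among histones are too few to set apart from the share over all genes.

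**Figure D5:**
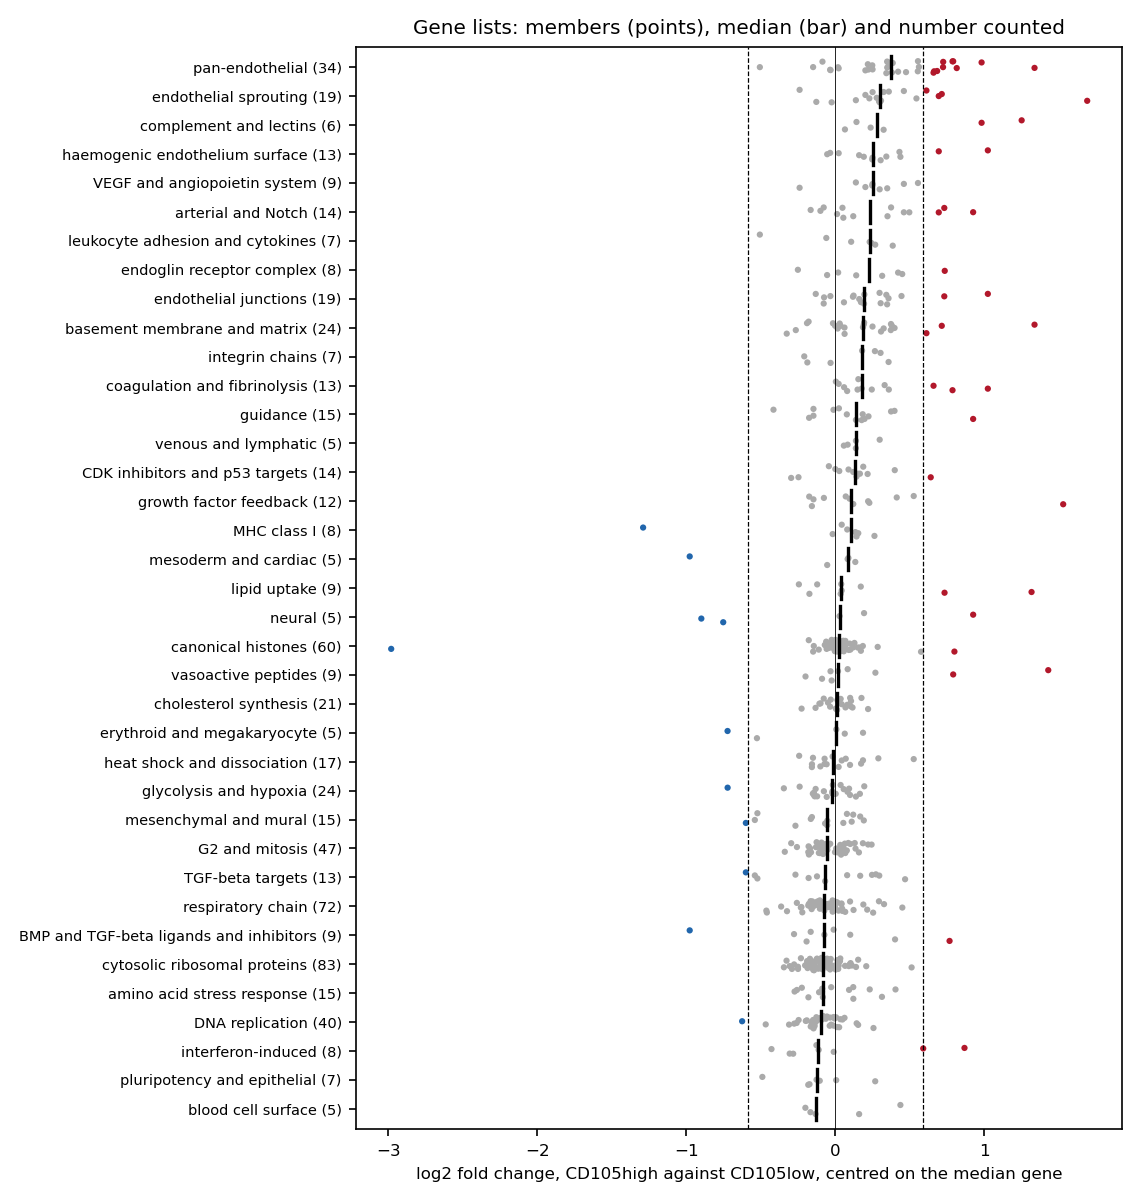
Centred log2 fold change of CD105high against CD105low (horizontal axis) for the counted members (points; red higher, blue lower, grey under 1.5-fold) of each gene list with at least 5 of them, with the list's median as a bar, the number counted in brackets and dashed lines at 1.5-fold. The pan-endothelial list has the rightmost median (0.37) and 10 red points, while the ribosomal, respiratory and mitotic lists have no coloured point. Members and lists were chosen with earlier results of these data known.

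The labelled cell type was checked against defining markers of the types that the gate could hold. CDH5, PECAM1, KDR, TEK, TIE1 and CD34 were all above 39 FPKM in both libraries. Of the mesenchymal markers, COL3A1 was at 11.03, 6.79 and 14.1 FPKM, PDGFRB at 4.99, 2.74 and 9.05 FPKM and PDGFRA at 14.9, 13.2 and 11.7 FPKM, while ACTA2, smooth muscle actin, was at 23.1, 24.2 and 20.4 FPKM (0.17). The summed level of all 23 mesenchymal and mural genes was 1882 FPKM in CD105low, 1770 FPKM in CD105high and 1790 FPKM in CD105neg, and 1 of 15 counted was lower, COL1A1. The pluripotency and epithelial list summed to 762, 646 and 909 FPKM with none of 7 counted members past the line; KRT19 (-0.49) passed it on the deposited scale (-0.59). No endoderm gene of 16 reached 10 FPKM, and their sum was between 18.7 and 25.8 FPKM. Of 5 counted neural genes GAP43, a growth cone protein, was higher at 10.05, 18.5 and 2.53 FPKM (0.92), and BEX1 and NTS were lower. Over all counted genes 1.91% were higher and 1.37% lower. The neural markers TUBB3 and STMN2 stayed under 10 FPKM. In bulk samples fewer cells of a type and less RNA per cell cannot be told apart, and the part of other cell types in the differences above was not tested.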

How the data were processed

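RNA was sequenced from 3 sorted populations, 1 library each; CD105high and CD105low are compared and CD105neg is printed beside them. Per the labels' protocols, each library took 2 ug of total RNA into a TruSeq kit, which does not mark strand, so reads of overlapping genes on opposite strands cannot be told apart. BWA, Bowtie, RSEM and hg19 are named, without version or role, per the submitters' processing notes; annotation and filters: not given in the sources used here. The deposited values, 1 per gene, were treated as FPKM scaled by the authors; they cannot be told apart from TPM.

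Genes at or above 10 in CD105high or CD105low were compared by log2(value + 1), centred on the median gene (Python 3.11.15, pandas 2.3.3), and called past 1.5-fold and 2-fold, without a test. The calculation was tested on simulated data. Named genes were ENG, PECAM1, CD34, ESM1, EDN1 and DLL4, the 25 highest and 25 lowest fold changes (without clone-named, small RNA, mitochondrial and read-through genes), the 4 largest changes of each of 39 gene lists and every counted member of 6 lists; further list members are given with their values, and 2 genes are not reported here. Members and lists were chosen with earlier results of these data known. Shared sequence is the percentage of 50-base pieces, taken every 40 bases from a gene's GENCODE 29 transcripts, that occur in another gene (18317 genes matched). Promoters are RefSeq's. Alternatives changed the pseudocount (0.1, 5), entry level (1, 30), scaling and genes kept.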

Additional observations from a re-analysis of the deposited data

How the results depend on the processing

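No paired analysis was possible because each group has 1 library. With 1 library a side no replicate could be left out either. Scaling both libraries to the same total, a pseudocount of 0.1 and leaving out histone, ribosomal protein, clone-named and read-through genes kept all 4 counts within 1.5 times of the 109 and 78 genes past 1.5-fold and the 21 and 16 past 2-fold. A pseudocount of 5 gave 43 lower at 1.5-fold and 8 at 2-fold. An entry level of 1 FPKM took in 11179 genes, with 200 higher and 155 lower at 1.5-fold and 42 and 28 at 2-fold; a level of 30 FPKM took in 1918 genes, with 47 and 30 at 1.5-fold and 8 and 10 at 2-fold, as more or fewer genes were compared. Without centring 72 were higher and 120 lower at 1.5-fold, and 25 lower at 2-fold. Without genes that share at least 10% of their sequence, 9 were lower at 2-fold. No named gene past 1.5-fold changed direction in any alternative that gave it a value. Of the 192 named genes, 9 lost the call with a pseudocount of 5 and 4 without centring. Low values limit the comparison: the fold of a gene near 10 FPKM depends on the pseudocount, and the unknown depth allows no interval.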

Other observations

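Genes between 5 and 10 FPKM in the higher of both libraries lay outside the counts. Those with the largest fold changes among them were picked after their values were seen. Shared sequence was not computed for the genes named here, so whether it bears on their values was not tested. PDGFB, the ligand with which endothelium recruits mural cells, stood at 2.78 FPKM in CD105low, 6.54 FPKM in CD105high and 0.73 FPKM in CD105neg (centred log2 fold change 1.10). A2M, the protease inhibitor alpha-2-macroglobulin, stood at 1.91, 5.08 and 0.27 FPKM in that order (1.17). Both had their highest value in CD105high and their lowest in CD105neg. The clustered protocadherin gene PCDHGC3 stood at 2.35, 9.84 and 4.72 FPKM (1.80) and PAQR8 at 2.14, 8.22 and 8.34 FPKM (1.66). In these the CD105low library was the lowest. On the other side, the histone H3 gene HIST2H3PS2 stood at 7.26, 0.035 and 4.65 FPKM (-2.89), TMEM164 at 8.63, 2.48 and 9.18 FPKM (-1.36) and the ubiquitin ligase gene TRIM32 at 5.18, 1.27 and 1.26 FPKM (-1.34). CD105high was the lowest library for the former pair, and in TRIM32 the CD105low library stood above the others.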
